A study of Mus musculus with 13 samples.

Results

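The genes described here are the collagen and laminin chain genes, taken as every protein-coding gene of GENCODE M21 (GRCm38) whose symbol is Col, a number, a and a number, or Lam, one of the letters a, b and c, and a number. By this rule 55 of the 54838 genes of the count table were members, 44 of them collagen chain genes and 11 laminin chain genes. Their transcripts were followed by total RNA-Seq in BM hematopoietic stem and progenitor cells sorted as Lin-cKit+, 50000 cells from each mouse, on a pure C57BL/6J background. All mice carried Mx1-Cre, in which the interferon-responsive Mx1 promoter drives the recombinase, so that recombination is not limited to blood cells. The control group (n = 3) carried Mx1-Cre alone, p53mut mice (n = 3) also carried 1 p53 R172H allele, and NrasG12D mice (n = 3) also carried 1 Nras G12D allele, which the genotype label spells G21D. These 3 groups received 3 injections of 100 µg pI-pC, which induces interferon, at about 6 weeks of age. The sample titles call them age-matched and give no age at collection for any group. NPmut mice (n = 4) carried both alleles, received no pI-pC, and were moribund at collection. In every comparison with NPmut mice, genotype, the missing pI-pC, and end-stage disease therefore cannot be told apart. The libraries held 12576174 to 29124022 counts each, and Nras and Trp53 were counted in all of them, with group means of 54.6 to 61.4 and 94.2 to 126 CPM (counts scaled to library size). Counts per gene do not separate the mutant from the WT allele, so that this does not check the genotype labels.

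Collagens are trimeric proteins of the extracellular matrix, each chain the product of its own gene. Fibril-forming collagens (types I, II, III, V, XI, XXIV, and XXVII) build fibers, type IV collagen builds the sheet of the basement membrane, and the other types decorate fibrils, form microfibrils, or span the cell membrane. Laminins are cross-shaped trimers of an alpha, a beta, and a gamma chain that form the second sheet of the basement membrane. In the BM most matrix is attributed to stromal, bone-forming, and endothelial cells, and megakaryocytes are also known to make basement membrane chains. The cells sorted here are blood progenitors, which are not known as a main source of these chains.

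Of the genes that fell in NPmut mice, 2 lie side by side in the genome. Col4a1 and Col4a2 encode the alpha 1 and alpha 2 chains that assemble into the common type IV trimer. Col4a1 (ENSMUSG00000031502) lies at chr8:11198423-11312826 on the minus strand and Col4a2 (ENSMUSG00000031503) at chr8:11312805-11449287 on the plus strand, so that they run in opposite directions from starts 21 bases apart and share 22 exonic bases. Their promoter windows, from 250 bases before to 50 bases after the start (RefSeq, GRCm38.p6), are shown because the pair shares this stretch of DNA. The other window belongs to Col16a1, on the plus strand of chromosome 4, which encodes a fibril-associated collagen chain and had the lowest adjusted p of the remaining chains. The windows are chr8:11312777-11313076 (minus strand) for Col4a1, chr8:11312555-11312854 (plus strand) for Col4a2, and chr4:130047590-130047889 (plus strand) for Col16a1. Capitals mark the letters CCAAT or GGGCGG, on either strand.
Col4a1: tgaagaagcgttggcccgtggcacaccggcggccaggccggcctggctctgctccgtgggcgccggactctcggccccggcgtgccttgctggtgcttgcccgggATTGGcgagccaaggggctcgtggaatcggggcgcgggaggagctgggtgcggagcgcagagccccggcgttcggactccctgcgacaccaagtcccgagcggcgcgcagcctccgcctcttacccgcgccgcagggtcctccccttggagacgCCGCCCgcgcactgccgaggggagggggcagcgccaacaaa
Col4a2: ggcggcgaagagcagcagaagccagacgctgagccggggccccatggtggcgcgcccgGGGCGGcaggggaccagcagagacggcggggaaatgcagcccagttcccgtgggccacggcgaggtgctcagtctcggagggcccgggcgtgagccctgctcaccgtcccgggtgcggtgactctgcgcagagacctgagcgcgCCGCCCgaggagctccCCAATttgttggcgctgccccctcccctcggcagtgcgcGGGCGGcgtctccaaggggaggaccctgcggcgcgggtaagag
Col16a1: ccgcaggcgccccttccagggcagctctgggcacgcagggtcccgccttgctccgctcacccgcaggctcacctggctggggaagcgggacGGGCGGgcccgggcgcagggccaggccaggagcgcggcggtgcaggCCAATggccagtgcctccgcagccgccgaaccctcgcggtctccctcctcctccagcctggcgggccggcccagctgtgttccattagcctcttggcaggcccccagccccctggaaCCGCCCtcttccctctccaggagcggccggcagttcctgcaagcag
The Col4a1 and Col4a2 windows cover the same 78 bases on opposite strands and have 1 GGGCGG in common there. Each of these 3 windows held 1 CCAAT, and they held 1, 3, and 2 copies of GGGCGG. Of all 32851 RefSeq windows of this length, 37.4% held CCAAT and 35.7% held GGGCGG. The GATA sequence AGATAA, searched on both strands as well, was in 11.2% of all windows, in none of these 3, and in 2 of the 44 windows found for 40 members. These are matches of letters and not measured binding sites.

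Many chain genes were within reach of the reads that fall on silent genes. The counts on 1135 olfactory receptor genes, which encode odorant receptors of the nose, served as a background for each library. As RPKM (reads per kb of exon, scaled to the library total), their density was 0.0281 ± 0.00878 (SD, n = 3) in control, 0.0203 ± 0.00732 in p53mut (n = 3), 0.00919 ± 0.000764 in NrasG12D (n = 3), and 0.00725 ± 0.00410 in NPmut mice (n = 4). The background was thus higher in control and p53mut libraries than in the others. Set against this density, the mean level of 17 of the 55 members in control mice was at least 5 times the background, and 21 members were within 2 times of it or below. In NPmut mice the same counts were 20 and 24. The mean levels of 28 members in control and 29 in NPmut mice were above the 95th percentile of the olfactory genes. Background of this density would give 12.2% of all counts on members in control, 9.39% in p53mut, 5.89% in NrasG12D, and 7.35% in NPmut mice.

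**Figure D1:**
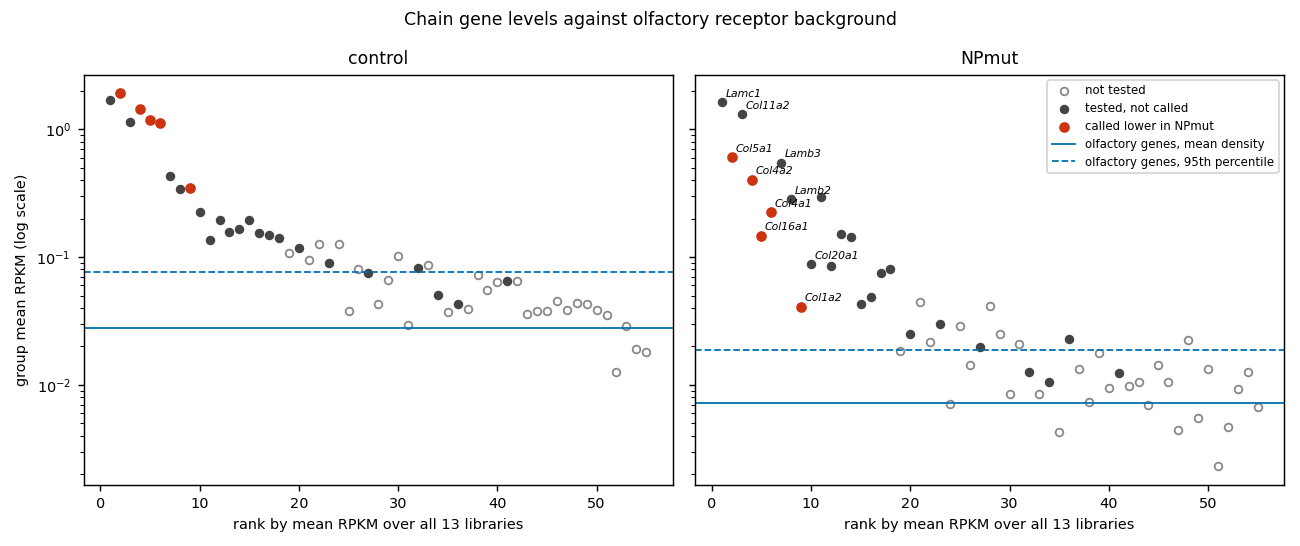
Group mean level (RPKM, log axis) of each of the 55 chain genes in control (left) and NPmut mice (right), ordered by their mean over all 13 libraries, with the mean density (solid line) and the 95th percentile (dashed line) of olfactory receptor genes. About 10 genes stand well clear of the lines in both panels, and the 5 genes called lower in NPmut mice (red) are among the 10 with the highest mean level.

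A few genes carried most of the signal. The 10 members with the highest mean RPKM over all libraries held 77.9% of all member counts, and the first 6 held 67.4%. In order of mean RPKM these were Lamc1 (1.81), Col5a1 (1.38), Col11a2 (1.257), Col4a2 (0.958), Col16a1 (0.748), Col4a1 (0.743), Lamb3 (0.450), Lamb2 (0.276), Col1a2 (0.195), and Col20a1 (0.160). In the groups, Lamc1 at 1.70 ± 0.485 RPKM and Col5a1 at 1.91 ± 0.401 in control mice (SD, n = 3) did not differ beyond their spread. Among the main fiber chains of fibroblasts and bone-forming cells, Col1a2 was clear of background, which would give 7.80% of its counts in control mice. Col1a1 (0.0405 RPKM over all libraries) and Col3a1 (0.00926 RPKM) were lower. Background would give 66.5% of the Col1a1 counts in control and 17.0% in NPmut mice, and 155% and 55.4% of the Col3a1 counts. All 55 members together took 102.8 ± 2.16 CPM of the library total in control, 94.0 ± 16.0 in p53mut, 70.8 ± 5.99 in NrasG12D (n = 3 each), and 50.5 ± 14.3 in NPmut mice (n = 4). The NPmut range of 32.2 to 66.1 CPM did not overlap the control range of 101.3 to 105.3 CPM.

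**Figure D2:**
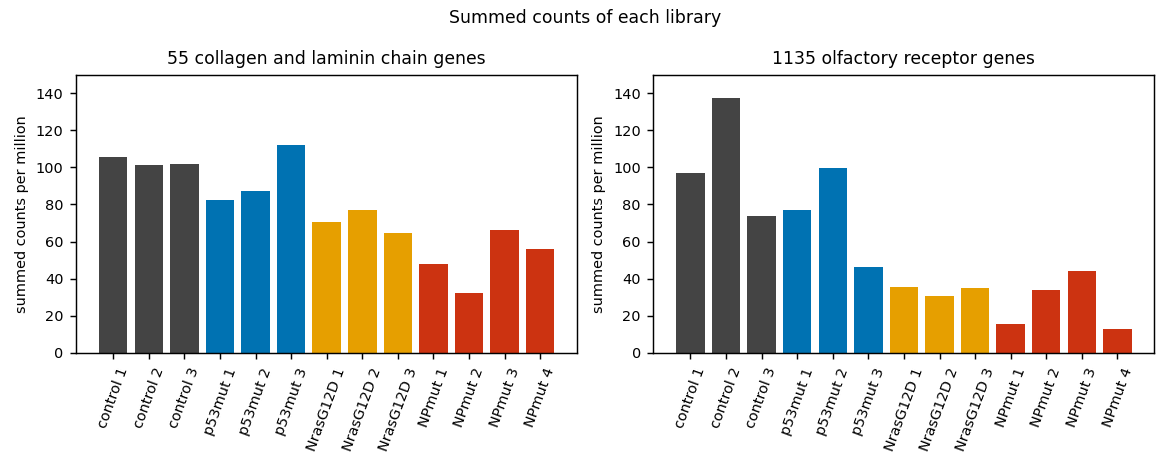
Summed CPM of the library total on the 55 chain genes (left) and on 1135 olfactory receptor genes (right), 1 bar per mouse. Both sums are highest in control and p53mut mice, while NrasG12D and NPmut libraries overlap on the olfactory genes at 12.9 to 44.2 CPM.

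In NPmut mice 5 collagen genes fell relative to control mice, 2 of the basement membrane, 2 fibril-forming, and 1 fibril-associated, and no chain gene rose. Their levels were 3.02-fold to 7.71-fold lower than in control mice. Of the 55 members, 25 had enough counts to be tested, 18 collagen and 7 laminin genes, in 1 edgeR quasi-likelihood fit over 17795 genes and all 13 libraries. A gene was called at a Benjamini-Hochberg adjusted p under 0.05 and a change of at least 2-fold. This rule called 3.69% of all tested genes lower and 2.32% higher in NPmut than in control mice. Of the 25 tested members 5 were called lower and 0 higher. At an unadjusted p under 0.05, 13 members were lower and 0 higher, against 4561 of all 17795 genes in either direction. Some of the 13, such as Lama1 with 0 to 5 counts in NPmut libraries, passed the filter through the groups where they are higher. Among the 5 called, Col16a1 and Col1a2 had as few as 5 and 2 counts in an NPmut library. With at least 10 counts in every library both were left out, and of 8 members tested 3 were called lower and 0 higher. Over all 13490 genes of that fit 320 were lower and 318 higher. The splits of 13 to 0 and of 5 to 0 are therefore partly set by the filter. By DESeq2, 6 members were called lower, with Col18a1 added, and 0 higher, against 825 lower and 498 higher of 17789 genes. These RNA levels come from bulk samples, so that fewer cells of a type and less RNA per cell cannot be told apart. Groups that do not overlap in single genes are given below as a description. How many of all tested genes separate in this way was not counted.

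Col4a2 had the smallest adjusted p. Its levels were 1.74, 1.19, and 1.39 RPKM in the control mice and 0.431, 0.275, 0.526, and 0.372 RPKM in the NPmut mice. Each NPmut value lay below each control value, and the fitted level was 3.34-fold lower (log2 fold change -1.74 ± 0.25 SE, edgeR adjusted p = 0.000696). Col4a1, its partner in the trimer, was at 1.49, 0.870, and 0.991 RPKM in control and at 0.289, 0.0552, 0.366, and 0.192 RPKM in NPmut mice. Again the groups did not overlap, with a 4.70-fold lower level (-2.23 ± 0.42, adjusted p = 0.00399). The level of Col4a1 relative to Col4a2 was 0.714 to 0.855 in control, 0.591 to 1.05 in p53mut, 0.694 to 1.03 in NrasG12D, and 0.201 to 0.696 in NPmut mice. The lowest of these ratios rested on 12 counts of Col4a1 and 53 of Col4a2 in NPmut mouse 2. The other 4 type IV genes, Col4a3 to Col4a6, encode chains of more restricted basement membranes and had too few counts to be tested, with means of 0.0180 to 0.0352 RPKM.

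Col16a1, at chr4:130047840-130099283, was at 1.5, 0.731, and 1.34 RPKM in control mice and at 0.185, 0.0559, 0.286, and 0.0589 RPKM in NPmut mice. The highest NPmut mouse was below the lowest control mouse, and the level was 7.52-fold lower (-2.91 ± 0.46, edgeR adjusted p = 0.00132). The count in NPmut mouse 4 was 5, so that its lowest values are imprecise.

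The 2 fibril-forming genes were Col1a2 and Col5a1. Col1a2, at chr6:4504814-4541544, encodes the alpha 2 chain of type I collagen, the main fiber of bone and tendon. It was at 0.124, 0.357, and 0.565 RPKM in control mice and at 0.0564, 0.0249, 0.0690, and 0.0128 RPKM in NPmut mice. The groups did not overlap despite the spread of the control mice, and the level was 7.71-fold lower (-2.95 ± 0.58, edgeR adjusted p = 0.00527). The NPmut libraries held 2 to 16 counts, of which background would give 18.8%. Its usual partner in the trimer, the product of Col1a1, had 0 to 14 counts in a library and was not tested.

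Col5a1, at chr2:27886425-28039514, encodes the main chain of type V collagen, which starts and limits the growth of fibrils. Its levels were 1.46, 2.04, and 2.24 RPKM in control and 0.395, 0.170, 0.840, and 1.00 RPKM in NPmut mice. All NPmut mice were below all control mice, although the NPmut values spanned a wide range (3.02-fold lower, -1.60 ± 0.43, edgeR adjusted p = 0.0304). This call depended on single libraries. Leaving out control mouse 2 raised its adjusted p to 0.0877, leaving out control mouse 3 to 0.106, and leaving out NPmut mouse 1 to 0.0797. In a fit of the control and NPmut mice alone it was 0.0874, and the other 4 genes were called. The other 4 genes called lower stayed called when any 1 control or NPmut mouse was left out.

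**Figure D3:**
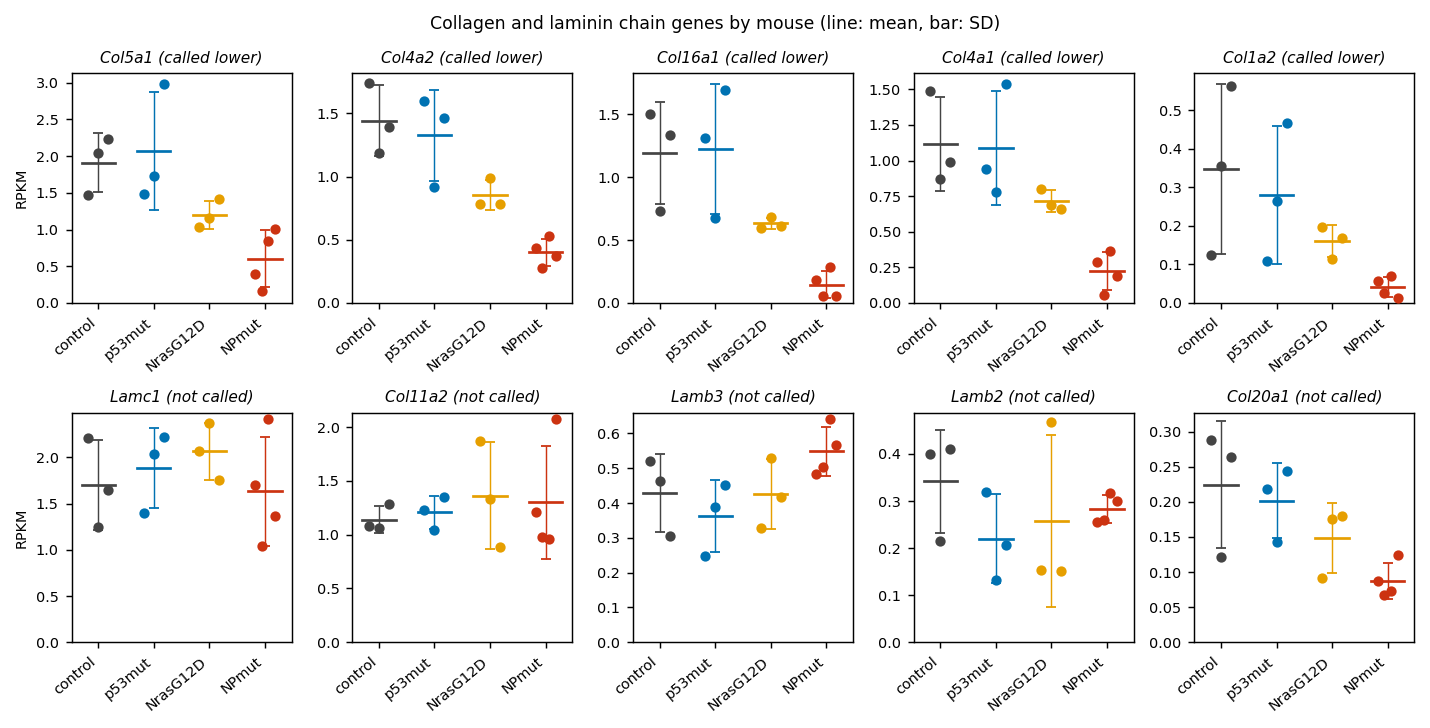
RPKM (linear axes from 0) of the 10 chain genes with the highest mean level, 1 point per mouse, with the group mean (line) and SD (bar). For the 5 genes called lower in NPmut than in control mice (upper row) no NPmut point reaches the lowest control point, while NPmut and control points of Lamc1, Col11a2, Lamb3, and Lamb2 (lower row) overlap.

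The other 5 of the 10 most abundant chains were not called. Lamc1, whose gamma 1 chain is part of most laminins, was at 2.21, 1.25, and 1.65 RPKM in control and 1.70, 1.05, 2.42, and 1.36 RPKM in NPmut mice (0.04 ± 0.25, edgeR adjusted p = 0.936). The highest and lowest mouse were both NPmut. Col11a2, a minor chain of cartilage fibrils, was at 1.08, 1.06, and 1.28 RPKM in control and 1.21, 0.974, 0.959, and 2.07 RPKM in NPmut mice (0.31 ± 0.29, adjusted p = 0.551). Here NPmut mouse 4 stood above the other 3. Lamb3, the beta chain of epithelial laminin-332, was at 0.519, 0.463, and 0.304 RPKM in control and 0.485, 0.504, 0.640, and 0.565 RPKM in NPmut mice (0.47 ± 0.30, adjusted p = 0.352). Lamb2, the beta 2 chain, was at 0.399, 0.216, and 0.411 RPKM in control and 0.255, 0.260, 0.317, and 0.301 RPKM in NPmut mice (-0.15 ± 0.43, adjusted p = 0.858). The NPmut and control values of all 4 genes overlapped. Col20a1, a fibril-associated collagen, was at 0.288, 0.121, and 0.264 RPKM in control and 0.0876, 0.0668, 0.0730, and 0.124 RPKM in NPmut mice (-1.255 ± 0.451, adjusted p = 0.0904). Its groups touched at control mouse 2 and NPmut mouse 4, and it shares 79 exonic bases with a gene on the same strand, so that its counts are uncertain.

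By role, both tested type IV genes and 2 of 6 tested fibril-forming genes were called lower in NPmut than in control mice, as was 1 of 5 tested fibril-associated genes. None of 4 tested laminin alpha, 2 beta, and 1 gamma chain genes was called, nor any of the 2 tested type VI, 1 type VII, 1 transmembrane, and 1 multiplexin genes. Multiplexins are basement membrane collagens with sugar chains, and Col18a1, which yields endostatin, had a log2 fold change of -2.05 ± 0.64 (edgeR adjusted p = 0.0547). Its libraries held 14 to 37 counts in control and 1 to 11 in NPmut mice. The laminin alpha chain genes Lama1, Lama3, Lama4, and Lama5 were lower by log2 fold changes, in this order, of -2.40, -1.48, -1.74, and -1.56 without being called (adjusted p = 0.0654, 0.158, 0.195, and 0.0904). Background would give 18.2% to 35.7% of their counts in control mice, against 1.44% to 7.80% for the 5 genes called. Several of these low members, such as Lama1 with 8 to 18 counts in control and 0 to 5 in NPmut libraries, passed the filter through the groups where they are higher, so that no median over the 25 tested members is given. The 10 members with the highest mean RPKM had a median log2 fold change of -1.43, with 7 below 0. Over all 17795 genes the median was 0.01 and 48.6% were below 0. This ranking averaged over all groups, so that genes could enter it through groups other than NPmut. Col1a2, at 0.0408 RPKM in NPmut mice, was among the 10, and Col19a1, at 0.296 RPKM, was not. The median of these 10 therefore depends on the ranking, here and in the other comparisons. Col19a1, a fibril-associated collagen, had the highest value, 1.21 ± 0.61 (adjusted p = 0.232), with 15 to 17 counts in control and 26 to 58 in NPmut libraries.

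The 30 members that were not tested, 26 collagen and 4 laminin genes, had at most 29 counts in any library and a mean of at most 0.0782 RPKM (Col28a1). Every one of them had 0 counts in at least 1 library. Together they held 623, 306, 179, and 255 counts in the control, p53mut, NrasG12D, and NPmut libraries, of which background would give 53.8%, 66.6%, 57.9%, and 57.5%. They include Col3a1 and Col5a2 of fibrils, 6 of the 8 genes of the type VI group, and all 3 short-chain network genes (Col8a1, Col8a2, and Col10a1). Among those tested, 5 had a library with 0 counts: Lama1, Lama4, Col6a2, Col6a3, and Col12a1. At this depth a change of these low genes was not separated from a change of background. Single ones stood over it in a group, such as Col28a1 at 12.2 times the olfactory density in NrasG12D and 2.56 times in NPmut mice. Col23a1 was at 6.13 times this density in NPmut mice.

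In NrasG12D mice relative to control mice no chain gene was called. By edgeR the rule called 0% of all tested genes lower and 0.00562% higher in this comparison, and by DESeq2 31 lower and 46 higher of 17789 genes. Of the 25 members 0 were called in either direction by edgeR and by DESeq2. At an unadjusted p under 0.05, 4 members were lower (Col4a2, Lama1, Lama3, and Col12a1) and 0 higher, against 1642 of all 17795 genes in either direction. The NrasG12D means of the 5 genes called in NPmut mice lay between the control and NPmut means. These genes were picked by the same control and NPmut values, so that this order is partly set by the selection. The share of all genes with such an order was not counted. Col4a2 was at 0.779, 0.988, and 0.786 RPKM in NrasG12D mice, all 3 below the control mice (-0.71 ± 0.26, edgeR adjusted p = 0.391). Col16a1 was at 0.599, 0.681, and 0.615 RPKM, also below each control mouse (-0.87 ± 0.46, adjusted p = 0.608). Col4a1 was at 0.801, 0.685, and 0.662 RPKM and Col5a1 at 1.04, 1.15, and 1.41 RPKM, again below their lowest control mice. For Col1a2, 0.198, 0.115, and 0.170 RPKM overlapped the control values. The 10 most abundant members had a median log2 fold change of -0.57, with 7 below 0, against -0.01 and 51.8% over all genes.

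In p53mut mice relative to control mice edgeR called 0% of all tested genes lower and 0% higher, and DESeq2 called 2 lower and 1 higher of 17789 genes. Of the 25 members 0 were called by edgeR and by DESeq2. Over all genes 415 of 17795 were at an unadjusted p under 0.05 by edgeR. With the replicate number as a block in a fit of control and p53mut mice alone, whose same-numbered libraries deviate together, 20 genes were called lower and 4 higher over all genes, and still 0 members. One member, Col19a1, was lower at an unadjusted p under 0.05 (-2.09 ± 0.79, edgeR adjusted p = 1.0), with 1 to 5 counts against 15 to 17 in control. Of the genes that fell in NPmut mice, the p53mut mice had Col4a2 at 1.59, 0.919, and 1.46, Col4a1 at 0.943, 0.776, and 1.54, and Col16a1 at 1.31, 0.673, and 1.69 RPKM. Col5a1 was at 1.48, 1.74, and 2.99 RPKM and Col1a2 at 0.108, 0.266, and 0.467 RPKM. The p53mut values of all 5 genes overlapped control values, and their log2 fold changes ran from -0.27 to 0.14. The median of the 10 most abundant members was -0.05, with 6 below 0, against 0.00 and 49.7% over all genes. An interaction contrast set the difference of NPmut from NrasG12D mice against that of p53mut from control mice. Only NPmut mice lacked pI-pC and were moribund, so that this contrast does not isolate a joint effect of the 2 alleles. In it 0 of 25 members had an edgeR adjusted p under 0.05, and the smallest was 0.0678, for Col19a1. At an unadjusted p under 0.05 were 4 members: Col19a1 (3.82 on the log2 scale), Col16a1 (-2.12), Col4a1 (-1.62), and Col4a2 (-0.93). The share of all genes at these limits was not counted.

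NPmut and NrasG12D mice had overlapping background levels, and 3 of the 5 genes, Col16a1, Col4a1, and Col4a2, were also lower in NPmut than in NrasG12D mice. The rule called 2.6% of all tested genes lower and 1.81% higher in this comparison, and of the 25 members 3 lower and 0 higher. At an unadjusted p under 0.05, 5 members were lower and 1 higher. Over all genes 4283 of 17795 passed this limit in either direction, a share close to that of the members. DESeq2 called 4 members lower, with Col1a2 added, and 0 higher, against 551 lower and 438 higher of 17444 genes. Both comparisons use the same NPmut mice, so that they are not independent. Col16a1 was 4.13-fold lower (log2 fold change -2.05 ± 0.46, edgeR adjusted p = 0.013), Col4a1 3.10-fold (-1.63 ± 0.42, adjusted p = 0.0255), and Col4a2 2.03-fold (-1.02 ± 0.25, adjusted p = 0.0194). For each of them every NPmut mouse was below every NrasG12D mouse. Col1a2 (-1.88 ± 0.59, adjusted p = 0.0621) and Col5a1 (-0.97 ± 0.43, adjusted p = 0.193) were not called. Their groups did not overlap either, and the share of all genes with such a separation was not counted. Col19a1 pointed the other way on the log2 scale, at 1.73 ± 0.64 (adjusted p = 0.107). For the 10 most abundant members the median was -0.84, with 7 below 0, against 0.04 and 46.1% below over all genes.

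The calls against NrasG12D mice depended on single libraries. Without NrasG12D mouse 2, 0 members were called, with adjusted p-values of 0.0514 for Col16a1, 0.0721 for Col4a1, and 0.0958 for Col4a2. Without NrasG12D mouse 1 or 3, Col4a1 had 0.0917 or 0.0576, and without NPmut mouse 2 the log2 fold change of Col4a2 was -0.89 (adjusted p = 0.0382), under the 2-fold limit. In a fit of these 2 groups alone, the 3 genes had adjusted p-values of 0.0581, 0.101, and 0.0784 and 0 were called. Col4a1, Col4a2, and Col16a1 were lower in NPmut than in NrasG12D mice in all these fits.

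**Figure D4:**
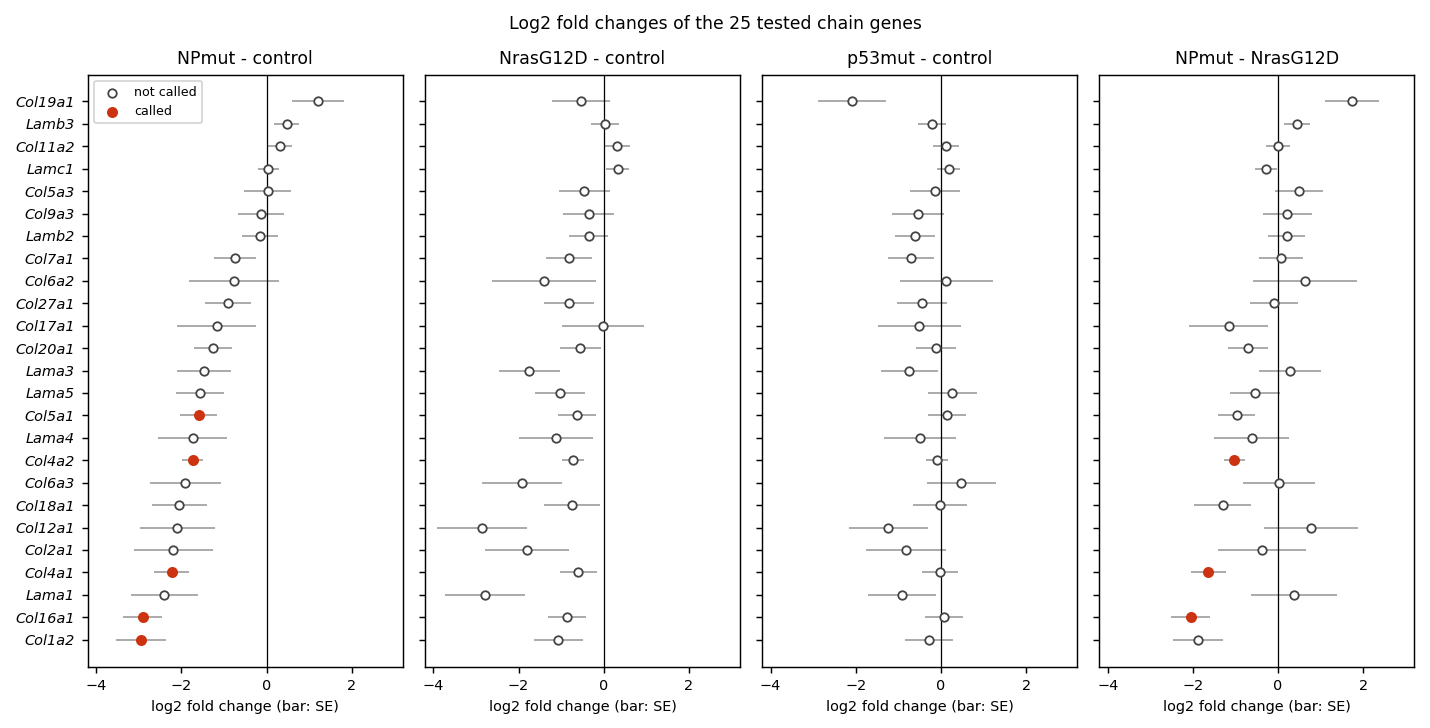
Log2 fold change (edgeR, bar: SE) of the 25 tested chain genes in the 4 comparisons, in the order of NPmut against control, with called genes in red. The 5 red genes of the first panel include the 3 of the last panel, no gene is red for NrasG12D or p53mut, and the tested laminin alpha genes lie left of 0 in the first 2 panels.

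The background was also taken out of the counts directly. After subtraction of the olfactory background expected for each gene and library, the same 5 genes were called lower in NPmut than in control mice, with log2 fold changes of -1.75 (Col4a2), -2.98 (Col16a1), -2.27 (Col4a1), -3.14 (Col1a2), and -1.61 (Col5a1). Against NrasG12D mice the same 3 were called. After this subtraction 18 members and 17501 genes were tested, and 543 genes were lower against control and 443 against NrasG12D mice. With the olfactory level of each library as a covariate of the fit, the log2 fold changes against control were -1.90, -3.10, -2.63, -3.22, and -2.25 in this order, and 1 gene, Col4a2, was called (edgeR adjusted p = 0.041). The others had adjusted p-values of 0.0521, 0.0685, 0.0843, and 0.113, and over all genes this covariate left 179 lower and 293 higher in place of 656 and 413. Without control mouse 2 and p53mut mouse 2, the libraries with the highest olfactory level, 4 genes were called, and Col5a1 had an adjusted p of 0.105.

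Genes that process, accompany, bind, or degrade these chains were read from lists. Of 29 collagen biosynthesis enzyme genes 16 were tested, and 1 was called lower in NPmut than in control mice, P3h2, a collagen prolyl hydroxylase (log2 fold change -1.99 ± 0.50, edgeR adjusted p = 0.0186). P4hb, the shared subunit of prolyl 4-hydroxylase and a general protein disulfide isomerase, was at 854 ± 72 CPM in the 3 control mice (mean ± SD) and at 1120 ± 289 CPM in the 4 NPmut mice (adjusted p = 0.212). Of 14 other matrix component genes 9 were tested. Fn1, fibronectin, rose from 6.40 ± 2.42 to 37.0 ± 22.2 CPM (2.52 ± 0.45, adjusted p = 0.00399), and Bgn, the small proteoglycan biglycan, fell from 3.45 ± 1.34 to 0.367 ± 0.269 CPM (-3.19 ± 0.53, adjusted p = 0.00183). Of 16 receptor genes 12 were tested, with 1 higher and 3 lower. Itga1, the alpha subunit of a collagen-binding integrin, rose from 19.4 ± 6.82 to 95.1 ± 17.9 CPM (2.29 ± 0.35, adjusted p = 0.00158). Itga2 and Itga10, alpha subunits of other collagen-binding integrins, and Mrc2, which takes up collagen fragments, fell by 1.36, 1.69, and 3.35 on the log2 scale (adjusted p = 0.0139, 0.0265, and 0.0191). Itgb1, the beta subunit that pairs with these alpha subunits, was at 196 ± 4.06 and 192 ± 14.5 CPM (-0.03 ± 0.09, adjusted p = 0.86). Of 15 protease and inhibitor genes 11 were tested. Mmp8, a neutrophil collagenase, rose by 1.31 on the log2 scale (adjusted p = 0.0348), and Timp3, a matrix-bound inhibitor of metalloproteinases, fell by 2.59 (adjusted p = 0.0012). The median log2 fold changes of these 4 lists in NPmut mice were, in this order, -0.05, -0.61, -0.42, and -0.28, against 0.01 over all genes. In NrasG12D and p53mut mice 0 genes of the 4 lists were called by edgeR.

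Markers of endothelial cells and megakaryocytes were also lower in NPmut mice. In NPmut mice 5 of 6 tested endothelial markers (of 12) and 8 of 10 tested megakaryocyte markers (of 12) were called lower than in control mice. Summed endothelial markers took 35.0 to 46.7 CPM in control, 30.7 to 49.3 in p53mut, 31.5 to 35.6 in NrasG12D, and 3.82 to 9.51 CPM in NPmut mice, led by Tie1 at 21.4 ± 6.12 CPM in control. The endothelial adhesion genes Cdh5 and Cldn5 had 2 to 14 and 0 counts in control libraries. Megakaryocyte markers took 174.8 to 278 CPM in control, 186 to 348 in p53mut, 232 to 259 in NrasG12D, and 32.2 to 104.1 CPM in NPmut mice, with log2 fold changes of -2.93 for Vwf and -2.78 for Pf4. Of 8 mast cell and basophil markers 6 were tested and 2 were lower, with summed levels of 164 to 227 CPM in control, 166 to 271 in p53mut, 296 to 333 in NrasG12D, and 36.6 to 148 CPM in NPmut mice. In NrasG12D mice 0 markers of these 3 lists were called by edgeR. Of 15 mesenchymal stromal and osteolineage markers 5 were tested and 0 were called, and the defining genes Lepr, Pdgfra, and Prrx1 had 1 to 9, 1 to 12, and 0 to 10 counts in control libraries. The summed mesenchymal level was 106.7 to 144.6 CPM in control and 76.6 to 198 CPM in NPmut mice, which overlap, and most of it came from Runx2 (85.7 ± 12.61 CPM in control and 109 ± 32.2 in NPmut mice) and Pdgfrb (26.6 ± 6.65 and 37.4 ± 18.2 CPM). Monocyte and macrophage markers rose, with 6 of 10 tested called higher, and took 183 to 196 CPM in control and 349 to 718 CPM in NPmut mice. Of 9 markers of mature lineages that the gate removes, 5 were tested and 0 were called. The 5 markers of the sorted cells were expressed in every library, and Kit was at 540 ± 31.7 CPM in control and 372 ± 66.4 CPM in NPmut mice (-0.54 ± 0.15, adjusted p = 0.0322), a change under the 2-fold limit. The part of these cell types in the collagen levels was not tested.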

How the data were processed

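The authors aligned total RNA-Seq reads of 13 libraries and deposited raw counts per gene in 1 table. The submitters' processing notes list STAR 2.6.1d, R 3.6.1, DESeq2 1.26.0, and GRCm38.p6, and the counting program and use of strand are not given in the sources used here, so that overlapping antisense genes cannot be told apart. Of 54838 identifiers, 54809 matched GENCODE M21. The main test was edgeR 4.0.16, run in R 4.3.3 on these counts (TMM, filterByExpr, robust quasi-likelihood, 1 mean for each of 4 groups, no covariate), with DESeq2 1.42.0 as an alternative. RPKM use library totals and exonic length. CPM of single genes use TMM-scaled library sizes, and sums over members, olfactory genes, or markers use library totals, so that sums and single genes differ in scale. Background is the count on olfactory (alternatively 324 vomeronasal) receptor genes per kb of exon, times the exonic length of a member. Members and lists were chosen with earlier results of these data known. Values of every mouse are given for members called in any comparison and for the 10 with the highest mean RPKM, and of other matrix genes those called in NPmut mice are named, at most 5 a list. P4hb and Itgb1, and the marker genes given with values, fall outside this rule: their values were known when they were picked. Each library is 1 mouse, and precision is set by 3 or 4 mice a group and by the counts given. Same-numbered control and p53mut libraries deviated together over genes (correlations 0.166, 0.163, and 0.152), and in no other pair of groups did every number exceed 0.1. Single values elsewhere were higher, at 0.257 and 0.294 for replicate 2 of NPmut mice with control and NrasG12D mice. No label gives a pairing and differently numbered libraries were not compared, so that a pairing of the samples was not established. On simulated counts with NPmut and control mice (17233 genes), 72% of genes lowered 4-fold and 32% of genes lowered 2-fold were called. The changed genes were drawn from all tested genes, so that these shares do not give the recovery among low chain genes. A call also needs an estimated change of at least 2-fold, which limits the share at a true 2-fold change. Figures were drawn with matplotlib 3.10.9.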

Additional observations from a re-analysis of the deposited data

How the results depend on the processing

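Among the comparisons with control mice, 0 members were called in NrasG12D and p53mut mice and 0 higher in NPmut mice under each alternative run. The number of members called lower in NPmut than in control mice, 5 of 25 tested, was 10 of 55 without the filter on low counts. Col18a1, Col2a1, Col6a4, Col6a6, and Lama5 were added there, and 1026 of 44944 genes were called lower. The number was 3 of 8 with at least 10 counts in every library, against 320 of 13490 genes, a filter that removed Col16a1 and Col1a2. With the olfactory level as a covariate it was 1 of 25, against 179 of 17795 genes. Leaving out 1 mouse at a time gave 4 to 6. For the number lower in NPmut than in NrasG12D mice, 3, a fit of these 2 groups alone gave 0, and leaving out 1 mouse at a time gave 0 to 4. Over all genes the fit of the 2 groups called 259 lower in place of 463. With the replicate block over all libraries it was 5, with Col1a2 and Col5a1 added, although no label pairs the samples by number. Over all genes the block called 535 lower in this comparison. The number higher in NPmut than in NrasG12D mice, 0, was 1 (Col19a1) without the filter, against 432 of 44944 genes. With 1 mouse left out it was 0 to 1, the 1 without NrasG12D replicate 1, where 152 of 17795 genes were higher. The cause of these moves was not tested, apart from the number of genes or samples that a filter or fit removes. The replicate block on control and p53mut mice alone left 0 members called. No log2 fold change of the genes called reversed. The replicate block moved no other count of called members. Over all genes it moved the calls in NPmut against control mice from 656 lower and 413 higher to 842 and 447, those in NrasG12D against control mice from 0 and 1 to 5 and 23, and, in control and p53mut mice alone, those of p53mut mice from 0 and 0 to 20 and 4. Low counts limit the members not named here. The alternative without control 2 and p53mut 2 was chosen after seeing the data.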
